A study of Mus musculus with 12 samples.

Results

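Glutamine transport and glutamate metabolism was examined in 12 mouse prostate tumours through 8 genes of a list of 9. The genes were chosen by name. For each, a probe set carrying exactly 1 gene symbol was required, and where a gene had several such probe sets, the brightest over the 12 tumours stood for it. Probe sets of Glul, Slc1a5, Slc38a1, Slc38a2, Glud1, Got1, Got2 and Gpt2 were found in this way, out of 19937 genes so represented on the array. Gls2, also on the list, was not analysed here.

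The tumours came from TRAMP-C2Re3, a mouse prostate carcinoma line on the C57BL6 background, injected into the prostate (50000 cells) of p62 KO mice (6 tumours) or WT mice (6 tumours), all C57BL6, and taken after 60 days. Each tumour was profiled from total RNA on 1 single-colour array. The protein p62, encoded by Sqstm1, is an autophagy receptor and signalling adaptor. All 12 tumours hold the same injected cells, which keep their own Sqstm1, so the genotypes differ in the host cells within the tumour. The labels used here give no age, no sex and no account of the deleted exons, and they do not say whether p62 is lost in every host cell type. A tumour array reads host and carcinoma RNA together, so fewer cells of a type and less RNA per cell cannot be told apart.

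Glutamine is the most abundant free amino acid in plasma and supplies nitrogen and carbon to growing cells. Carriers in the plasma membrane bring it in, it is turned into glutamate, and glutamate dehydrogenase or transaminases pass glutamate carbon on to the citric acid cycle. Glutamine synthetase runs the other way and makes glutamine from glutamate and ammonia. Cancer-associated fibroblasts are known to make and release glutamine in some tumours.

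As a check of the tissue, the fibroblast markers averaged a log2 level of 8.75 to 9.47 in tumours of p62 KO hosts and 9.01 to 9.40 in tumours of WT hosts, and the macrophage markers 8.84 to 9.78 and 8.86 to 9.52. The epithelial keratin Krt8 was measured at 8.12 in KO tumours and 8.10 in WT tumours. Epcam, at 4.61 in KO tumours and 4.59 in WT tumours, lay below the lower quartile of the arrays (4.85 to 5.36), as did Pbsn, a secretory product of the normal gland, at 3.01 in KO tumours and 2.95 in WT tumours. Correlations between arrays lay between 0.935 and 0.991. KO tumours 2 and 3 and WT tumours 2 and 5 stood apart, with interquartile ranges of 2.26, 2.15, 2.59 and 2.47 log2 units, against 2.70 to 2.95 in the other 8 tumours. The differences of the 8 genes are given with and without them.

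Loss of p62 in the host was not accompanied by a called change in any of the 8 genes. Glul, the glutamine-producing gene, was higher on average in KO tumours, by 0.25 on the log2 scale, and the 7 other genes were lower on average, by 0.06 to 0.26. None of these differences passed the test (limma, adjusted p = 0.994 for each). KO tumour 2 held the lowest of all 12 values in each of those 7 genes and the highest value in Glul, and without it the 7 differences lay between -0.11 and 0.08.

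Over all 28192 probe sets tested with limma, 0 were called higher and 1 was called lower at an adjusted p under 0.05, or 0.00355%. The called probe set was that of the pseudogene Nlrp1c-ps, which is no gene of this pathway. In single omissions, 0 probe sets were called lower with any 1 of 10 tumours left out, all other than KO tumour 2 and WT tumour 2. At an unadjusted p under 0.05 there were 0 of the 8 genes, against 2.39% of all probe sets, and the host groups overlapped in all 8, against non-overlap in 0.145% of all probe sets. The median difference of the 8 genes was -0.15, against 0.02 for all probe sets, of which 57.2% were above 0 and 42.8% below. Of the 8 genes 1 was above 0 and 7 below. The probe sets of all 8 genes lie in the upper part of the array's scale, which does not rank the genes' RNA. Among the 9125 probe sets with a mean intensity at least that of Gpt2, the lowest of the 8, the median difference was -0.06 and 65.0% were below 0.

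Glul encodes glutamine synthetase, the only enzyme of mammals that makes glutamine from glutamate. Its level in tumours of KO hosts had a lowest value of 8.44, a median of 8.93 and a highest value of 9.16, against 8.13, 8.68 and 8.98 in tumours of WT hosts. The groups overlapped, with 5 of 6 KO tumours above the WT median. KO tumour 3 was the low one of its group. WT tumour 2, at 8.13, and WT tumour 1, at 8.41, were the lowest of all 12. The means were 8.88 ± 0.25 in KO tumours and 8.63 ± 0.32 in WT tumours (SD, n = 6 each), a difference of 0.25 (SE 0.16, 95% interval -0.09 to 0.58) that did not pass in limma (adjusted p = 0.994). Without WT tumour 2 it was 0.15. Leaving out KO tumours 2 and 3 gave 0.29 (adjusted p = 0.648), and leaving out these with WT tumours 2 and 5 gave 0.17 (adjusted p = 0.996).

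A second Glul probe set ran from 7.17 to 7.68 in KO tumours and from 6.51 to 7.54 in WT tumours. Its difference was 0.31 (SE 0.16, limma adjusted p = 0.994), in the same direction as the first. WT tumour 2 was again the lowest of the 12.

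**Figure D1:**
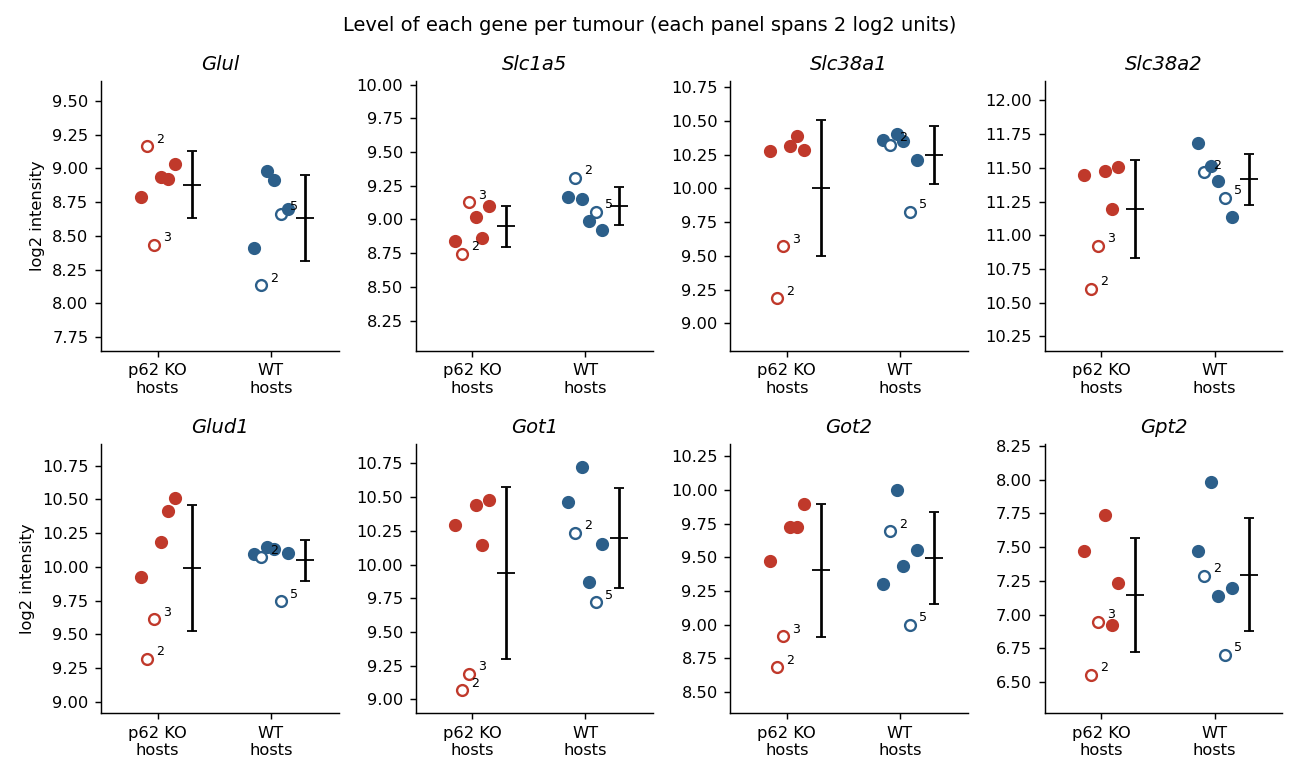
Log2 intensity (vertical axis, each panel spanning 2 log2 units) of the 8 genes in tumours of p62 KO hosts (red, left) and WT hosts (blue, right); points are tumours, open points with their mouse number are the 4 tumours standing apart, and bars are mean ± SD (n = 6). KO tumour 2 is the lowest point in every panel other than Glul, where it is the highest at 9.16.

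The 250 bases before the annotated start of Glul, Got1 and Slc38a2 are given, from RefSeq on build GRCm38.p6, on the strand of the gene and 5′ to 3′. Glul was the only gene of the 8 that was higher on average in KO tumours. Got1 and Slc38a2 are the 2 genes whose windows held a match to a motif named below. Glud1 and Got2 moved with Got1 and have windows without a match, so the windows shown do not stand for the genes that moved together. RefSeq windows were at hand for 6 of the 8 genes. Capitals mark matches, on either strand, to TGATGNAA (the core of the composite element bound by ATF4, the transcription factor of the amino acid response), CACGTG (the E-box bound by Myc) or TGACNNNGC (the core of the antioxidant response element bound by NRF2). The matches do not overlap each other.
Glul, chr1:153899679-153899928, plus strand: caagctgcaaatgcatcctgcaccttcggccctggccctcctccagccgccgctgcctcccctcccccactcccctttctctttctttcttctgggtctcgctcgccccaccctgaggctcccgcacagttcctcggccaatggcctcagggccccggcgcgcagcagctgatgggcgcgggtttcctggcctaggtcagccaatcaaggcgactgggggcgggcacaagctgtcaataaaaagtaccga
Got1, chr19:43524606-43524855, minus strand: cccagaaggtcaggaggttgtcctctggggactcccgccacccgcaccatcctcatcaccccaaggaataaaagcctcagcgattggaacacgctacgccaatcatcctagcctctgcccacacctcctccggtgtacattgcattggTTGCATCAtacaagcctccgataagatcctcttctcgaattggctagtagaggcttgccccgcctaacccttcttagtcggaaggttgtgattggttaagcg
Slc38a2, chr15:96699729-96699978, minus strand: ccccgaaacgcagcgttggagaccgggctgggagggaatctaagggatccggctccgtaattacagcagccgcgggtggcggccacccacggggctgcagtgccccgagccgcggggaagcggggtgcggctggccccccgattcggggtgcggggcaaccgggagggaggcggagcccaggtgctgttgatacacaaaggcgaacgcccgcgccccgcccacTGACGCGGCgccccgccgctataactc

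The Got1 window held 1 match to TGATGNAA, read on the opposite strand and beginning 102 bases before the start. In the Slc38a2 window there was 1 match to TGACNNNGC, beginning 27 bases before the start. None of the other 4 windows, those of Glul, Glud1, Got2 and Gpt2, held a match to any of the 3 motifs. Of all 32851 windows of the same length, 3.45% held TGATGNAA, 6.02% held CACGTG and 10.2% held TGACNNNGC. A match here is a run of letters and no measured binding.

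The 3 carrier genes were lower on average in KO tumours. Slc1a5 encodes ASCT2, a sodium-dependent exchanger that carries glutamine into many proliferating cells. Its level ran from 8.74 through a median of 8.94 to 9.13 in KO tumours, against 8.92, 9.10 and 9.31 in WT tumours, with 5 of 6 KO tumours below the WT median. It differed by -0.15 (SE 0.10, 95% interval -0.36 to 0.06, limma adjusted p = 0.994). It was the least variable of the 8 genes, with an SD of 0.16 in KO tumours and 0.14 in WT tumours, and the 4 tumours standing apart did not share a side. KO tumour 3 was the highest of its group, while KO tumour 2 was the lowest of all. Without KO tumours 2 and 3 the difference was -0.14, and without the 4 tumours it was -0.10.

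Slc1a5 and Glul took opposite ends in the same tumours. WT tumour 2 had the highest Slc1a5 level and the lowest Glul level of all 12, and KO tumour 2 had the lowest Slc1a5 level and the highest Glul level. These are ranks in single tumours, one of each genotype, and were not tested.

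Slc38a1 encodes SNAT1 and Slc38a2 encodes SNAT2, sodium-coupled importers of glutamine and other small neutral amino acids, and Slc38a2 is induced when amino acids run short. Slc38a1 had a lowest level of 9.19, a median of 10.28 and a highest level of 10.39 in KO tumours, against 9.83, 10.34 and 10.41 in WT tumours. KO tumours 2 and 3, at 9.19 and 9.57, and WT tumour 5, at 9.83, were the 3 lowest of the 12. The mean difference of -0.24 (SE 0.20, 95% interval -0.68 to 0.19, limma adjusted p = 0.994) turned to 0.07 without KO tumours 2 and 3 (adjusted p = 0.846) and was -0.02 without the 4 tumours (adjusted p = 0.999). Without KO tumour 2 alone it was -0.08. A second Slc38a1 probe set differed by -0.42 (SE 0.25, adjusted p = 0.994), with the same 3 tumours lowest, at 7.31, 7.53 and 8.02.

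Slc38a2 ran from 10.60 through 11.32 to 11.50 in KO tumours, against 11.14, 11.44 and 11.68 in WT tumours. KO tumours 2 and 3 were again the lowest of the 12. The difference of -0.22 (SE 0.16, 95% interval -0.56 to 0.12, limma adjusted p = 0.994) shrank to -0.10 without KO tumour 2, to -0.0083 without KO tumours 2 and 3 and to -0.03 without the 4 tumours.

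The 4 enzymes that convert glutamate were also lower on average in KO tumours, and 3 of them turned without KO tumours 2 and 3 and without the 4 tumours alike. Glud1 encodes mitochondrial glutamate dehydrogenase, which releases ammonia from glutamate to give alpha-ketoglutarate. Its lowest, median and highest levels were 9.32, 10.06 and 10.51 in KO tumours, against 9.74, 10.10 and 10.15 in WT tumours. KO tumours held both ends of the 12 values, with KO tumours 2 and 3 lowest and KO tumours 6 and 5 highest. The SD was 0.47 in KO tumours and 0.15 in WT tumours. Glud1 differed by -0.06 (SE 0.18, 95% interval -0.45 to 0.34, limma adjusted p = 0.994), by 0.08 without KO tumour 2, by 0.21 without KO tumours 2 and 3 (adjusted p = 0.655) and by 0.14 without the 4 tumours (adjusted p = 0.996).

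Got1 and Got2 encode the cytosolic and the mitochondrial aspartate aminotransferase, the enzymes of the malate-aspartate shuttle that pass the amino group of glutamate to oxaloacetate. Got1 had the widest SD of the 8 genes in KO tumours, 0.64. Its levels were 9.07, 10.22 and 10.48 in KO tumours (lowest, median, highest), against 9.72, 10.19 and 10.72 in WT tumours, so that the medians were close. It differed by -0.26 (SE 0.27, 95% interval -0.83 to 0.31, limma adjusted p = 0.994), by -0.08 without KO tumour 2, by 0.14 without KO tumours 2 and 3 (adjusted p = 0.797) and by 0.04 without the 4 tumours (adjusted p = 0.999).

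Got2 ran from 8.68 through 9.60 to 9.89 in KO tumours, against 9.002, 9.50 and 10.001 in WT tumours, with the KO median above the WT median. The mean difference of -0.09 (SE 0.22, 95% interval -0.57 to 0.38, limma adjusted p = 0.994) was 0.05 without KO tumour 2, 0.21 without KO tumours 2 and 3 (adjusted p = 0.714) and 0.13 without the 4 tumours (adjusted p = 0.996). As for Got1, the 3 lowest tumours were KO 2, KO 3 and WT 5.

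Gpt2 encodes the mitochondrial alanine aminotransferase, which moves the amino group of glutamate to pyruvate. Its levels were 6.55, 7.09 and 7.74 in KO tumours (lowest, median, highest), against 6.70, 7.24 and 7.98 in WT tumours. The lowest tumours were KO 2 and WT 5. The difference was -0.15 (SE 0.22, 95% interval -0.62 to 0.32, limma adjusted p = 0.994), -0.03 without KO tumour 2, -0.02 without WT tumour 3 (the highest of the 12), 0.04 without KO tumours 2 and 3 and -0.11 without the 4 tumours.

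**Figure D2:**
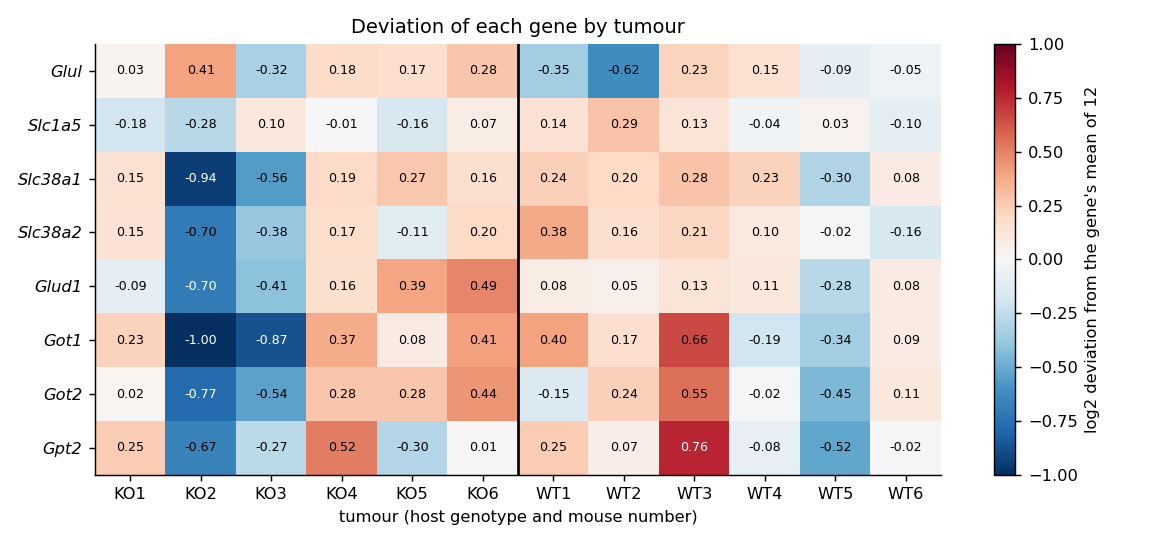
Log2 deviation of each gene (rows) from its own mean over the 12 tumours, by tumour (columns, p62 KO hosts left of the line, WT hosts right); red is above and blue below the mean. Slc38a1, Slc38a2, Glud1, Got1, Got2 and Gpt2 were below their means together in KO tumours 2 and 3 and WT tumour 5, whereas Glul was at 0.41 above its mean in KO tumour 2.

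Across tumours, the genes fell into a shared pattern and 2 exceptions. KO tumours 2 and 3 and WT tumour 5 were the 3 lowest of 12 in 4 genes (Slc38a1, Glud1, Got1 and Got2), and KO tumours 2 and 3 were the lowest pair in 5, these 4 and Slc38a2. In KO tumour 2 the deviations from each gene's mean were -0.94 in Slc38a1, -0.70 in Slc38a2, -0.70 in Glud1, -0.996 in Got1, -0.77 in Got2 and -0.67 in Gpt2. Slc1a5 was at -0.28 there and Glul at 0.41. In KO tumour 3 Glul was at -0.32, on the side of the shared pattern, and Slc1a5 at 0.10. The 3 tumours with the lowest levels of the shared pattern are also the 3 with the narrowest interquartile ranges, 2.15, 2.26 and 2.47, and the part of array range in these levels was not tested. The same 3 tumours had the highest scores on the first principal component over all tested probe sets, which held 58.5% of the variance. KO tumour 3 was at 83.6, KO tumour 2 at 65.0 and WT tumour 5 at 29.0, so these tumours stood apart over the array and not in these genes alone. Without KO tumours 2 and 3, 6 of the 8 genes were higher and 2 lower on average in KO tumours (median difference 0.11), and without the 4 tumours 4 were higher and 4 lower (median 0.01). The medians over all probe sets in these fits were -0.016 and -0.0057. No share was taken in them over probe sets as bright as the 8 genes.

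**Figure D3:**
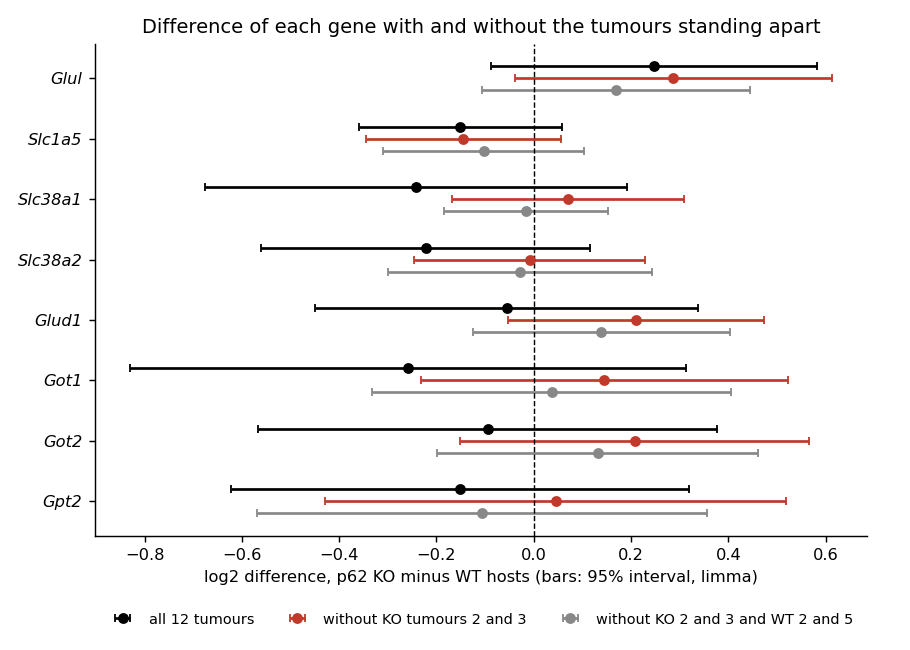
Log2 difference of each gene, p62 KO minus WT hosts (horizontal axis), with its 95% interval from limma, over all 12 tumours (black), without KO tumours 2 and 3 (red) and without these and WT tumours 2 and 5 (grey). All intervals include 0. Glul stays above 0 and Slc1a5 and Slc38a2 below 0 in the 3 fits, while Glud1, Got1 and Got2 turn in both fits with fewer tumours.

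The glutamine-producing gene Glul was compared with other groups of genes within each tumour, by taking the deviation of Glul from its mean of 12 and subtracting the mean deviation of the group. The converting enzymes act on glutamate and the carriers move glutamine, and only the further set described last consumes glutamine. Levels of different genes were not set against each other. Relative to the 4 glutamate-converting enzymes, Glul averaged 0.19 ± 0.50 in KO tumours and -0.19 ± 0.41 in WT tumours (SD, n = 6 each), a difference of 0.39. The values ran from -0.15 to 1.19 in KO tumours and from -0.76 to 0.30 in WT tumours. A single KO tumour, number 2, lay above the highest WT tumour, and 3 of 6 KO tumours and 2 of 6 WT tumours were above 0. Without KO tumour 2 the difference was 0.19.

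Relative to the 3 carriers, Glul averaged 0.23 ± 0.41 in KO tumours and -0.23 ± 0.39 in WT tumours, a difference of 0.45. Here 4 of 6 KO tumours lay above the highest WT tumour, at 0.06, with KO tumour 2 at 1.04 and the other 3 between 0.06 and 0.17. WT tumours 1 and 2, at -0.60 and -0.84, lay below every KO tumour, and the other 4 WT tumours stood between 0.0026 and 0.06. The difference was 0.29 without KO tumour 2.

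Since Gls2 was not analysed here, a further set was taken after the values had been seen, 10 enzymes that consume glutamine as a nitrogen donor in the synthesis of nucleotides, hexosamines, asparagine and NAD. Relative to them Glul averaged 0.17 ± 0.40 in KO tumours and -0.17 ± 0.34 in WT tumours, a difference of 0.33, or 0.17 without KO tumour 2 and 0.23 without WT tumour 2. No test was made of these 3 measures, because the genes were chosen with earlier results known. Without the 4 tumours standing apart the differences were 0.12 against the converting enzymes, 0.22 against the carriers and 0.11 against the glutamine-using enzymes. The SDs above include those 4 tumours, so they do not give the spread among the remaining 8.

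**Figure D4:**
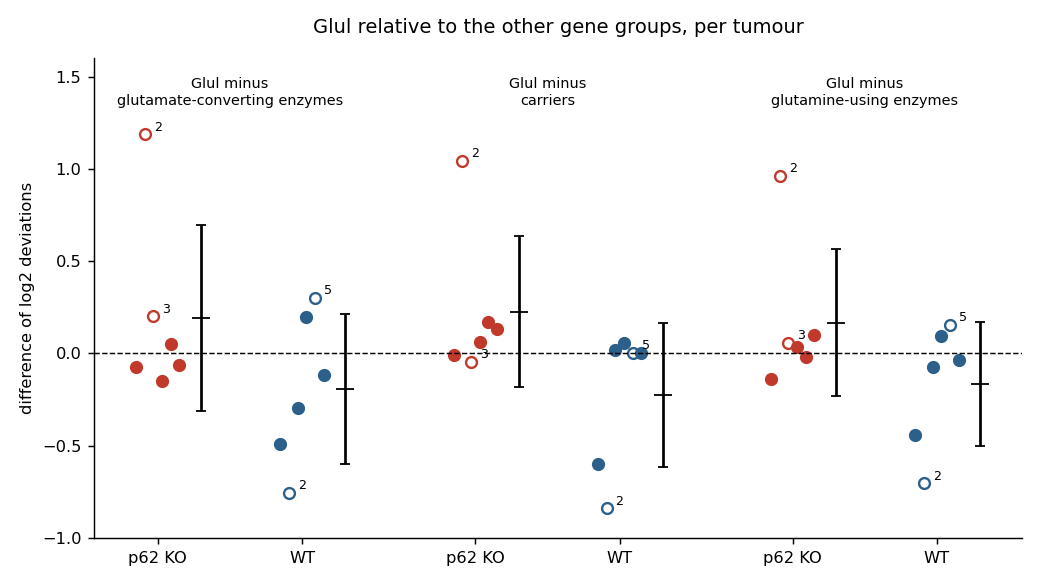
Glul relative to the glutamate-converting enzymes, the carriers and the glutamine-using enzymes (vertical axis, difference of log2 deviations), per tumour of p62 KO hosts (red, left of each pair) and WT hosts (blue); open points with mouse numbers are the 4 tumours standing apart, and bars are mean ± SD (n = 6). KO tumour 2 lies at 1.19, 1.04 and 0.96, and WT tumour 2 at -0.76, -0.84 and -0.70.

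Beyond the 8 genes, 55 of 61 listed genes of glutamine and glutamate metabolism were measured. Of these 28 were higher and 27 lower on average in KO tumours, 0 passed the limma test in either direction, and their median difference was 0.02, equal to that of all probe sets after rounding. Without adjustment, a p under 0.05 was reached by 2 genes on the higher side, where 1.28% of all probe sets did so, and by 3 on the lower side, where 1.11% did. Of the 10 glutamine-using enzymes 3 were higher and 7 lower, with a median of -0.14. Ppat, which starts purine synthesis by taking an amino group from glutamine, had the largest lower difference at -0.28 (SE 0.22) and was at 0.07 without KO tumours 2 and 3.

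Pfas, the purine synthesis enzyme that uses glutamine at a later step, was the highest of that list. It ran from 6.73 to 7.02 in KO tumours and from 6.61 to 6.71 in WT tumours. All 6 KO tumours lay above all 6 WT tumours, which held for 0.0709% of all probe sets in that direction. The difference was small, 0.18 (SE 0.08), and did not pass in limma (adjusted p = 0.994). It stayed between 0.14 and 0.20 over all alternatives tried.

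Among 15 further carriers of glutamine and neutral amino acids, 8 were higher and 7 lower (median 0.02). Slc38a4, which encodes the sodium-coupled amino acid carrier SNAT4, had the largest difference. Its lowest, median and highest levels were 6.98, 7.53 and 8.07 in KO tumours, against 6.35, 7.09 and 7.30 in WT tumours, with 5 of 6 KO tumours above the WT median. The groups overlapped through KO tumour 3, the low one at 6.98. The means were 7.57 ± 0.40 in KO tumours and 6.93 ± 0.41 in WT tumours (SD, n = 6 each), a difference of 0.64 (SE 0.21, unadjusted p = 0.0092 in limma) that did not pass adjustment (adjusted p = 0.994). It was 0.83 without KO tumours 2 and 3 (adjusted p = 0.602) and 0.81 without the 4 tumours (adjusted p = 0.743), so that this difference was as large without them. Slc7a6, which exchanges cationic amino acids for glutamine, differed by -0.31 (SE 0.13, adjusted p = 0.994), with 6 of 6 KO tumours below the WT median, and by -0.21 without the 4 tumours.

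Of 5 measured genes that link glutamate and glutathione, 3 were higher and 2 lower (median 0.05). Gclc, the catalytic subunit of the enzyme that joins glutamate to cysteine, averaged 8.41 ± 0.35 in KO tumours and 8.97 ± 0.43 in WT tumours (SD, n = 6 each), with 6 of 6 KO tumours below the WT median. Its difference of -0.57 (SE 0.20, adjusted p = 0.994 in limma) was -0.42 without WT tumour 2, the highest at 9.73, and -0.22 without the 4 tumours. The other 4 measured genes of that list differed by -0.16 to 0.08, and Ggt7 had the highest difference, which turned to -0.03 without KO tumour 3. Slc7a11, which exports glutamate in exchange for cystine, averaged 6.54 ± 0.26 in KO tumours and 7.32 ± 0.96 in WT tumours, a difference of -0.78 (SE 0.35, adjusted p = 0.994) with 6 of 6 KO tumours below the WT median. WT tumour 2 reached 8.93 in this gene, and without it the difference was -0.46, against -0.63 without the 4 tumours. WT tumour 2 was thus the highest in Slc7a11, Gclc and Slc1a5 and the lowest in Glul.

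The genes of the remaining lists did not pass in limma (0 called, and of these genes only Slc7a11 had an unadjusted p under 0.05). Of the 6 glutamate carriers of the plasma membrane, 5 were higher on average, all other than Slc7a11. KO tumours 2 and 3 were the highest of the 12 in Slc1a2 (6.13 and 6.25) and Slc1a7 (5.85 and 5.96). In Slc1a6 KO tumour 2 was the highest of the 12, at 5.13, and in Slc1a1 KO tumour 3, at 5.36. The differences of these genes without those tumours are not given here. Slc1a3, a glutamate importer, had the highest difference, at 0.21 (SE 0.19). That difference varied with the tumours included. It stayed above 0 with any 1 tumour left out, from 0.14 without WT tumour 6 to 0.37 without WT tumour 1, the highest of the 12. It was 0.05 without KO tumours 2 and 3 and 0.04 without the 4 tumours. With weights per array it turned to -0.03.

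The 5 mitochondrial carriers of glutamate, aspartate or oxoglutarate had a median of -0.01, with 1 higher and 4 lower. Slc25a13, which exchanges aspartate for glutamate across the inner membrane, was at 0.16, but at 0.02 without KO tumour 4 and at 0.26 without KO tumours 2 and 3. Slc25a11, the oxoglutarate carrier of the malate-aspartate shuttle, was at -0.02 and turned to 0.33 without KO tumours 2 and 3 (unadjusted p = 0.0444, limma adjusted p = 0.638) and to 0.16 without the 4 tumours.

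The 6 further transaminases had a median of 0.06. Bcat1, the cytosolic branched-chain aminotransferase, was at -0.18 and turned to 0.01 without KO tumours 2 and 3. Aadat, whose level of 3.93 in KO tumours and 3.69 in WT tumours lay below the lower quartiles of the arrays, was at 0.24, but at 0.15 without KO tumour 3, at 0.09 without KO tumours 2 and 3 and at 0.17 without the 4 tumours. The 4 genes linking glutamate to proline and ornithine ran from -0.02 in Aldh18a1 to 0.06 in Prodh, and both turned without KO tumours 2 and 3, to 0.16 and -0.05. The 4 genes of GABA metabolism ran from -0.02 in Aldh5a1 to 0.11 in Gad1, the glutamate decarboxylase. Gad1 was at 0.02 without KO tumour 3 and at -0.03 without KO tumours 2 and 3.

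**Figure D5:**
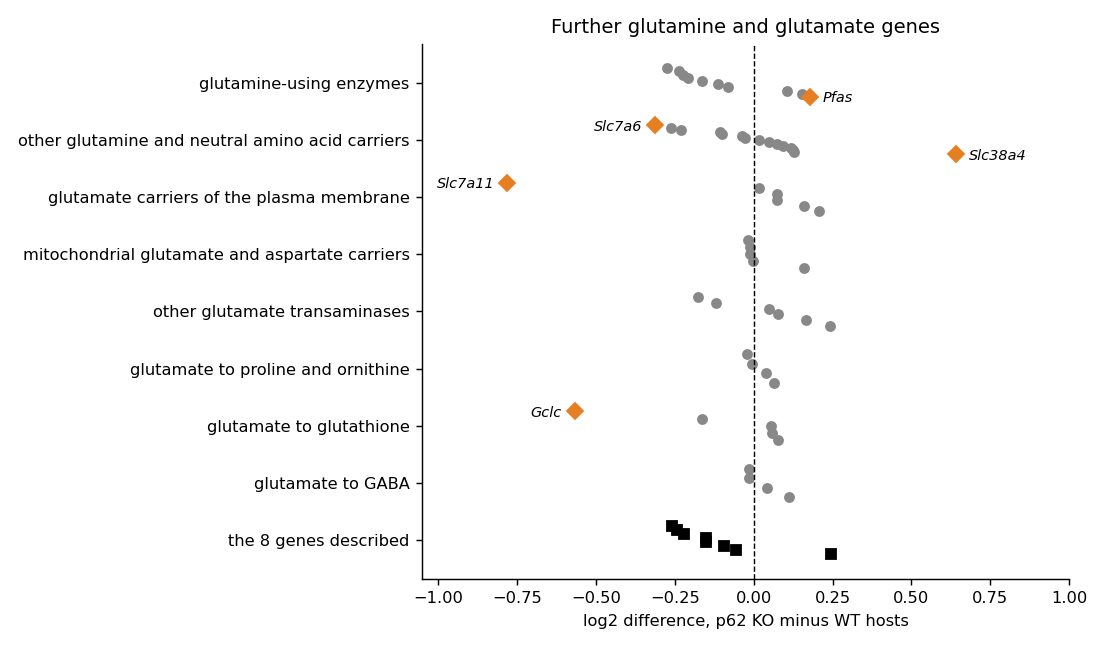
Log2 difference, p62 KO minus WT hosts (horizontal axis), of the 55 further genes by list; each point is a gene, orange diamonds have an unadjusted p under 0.05 in limma, and black squares are the 8 genes described. Slc38a4 at 0.64 and Slc7a11 at -0.78 lie farthest from 0, and 0 genes passed after adjustment.

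Markers of cell types that the tumours could hold were set beside Glul. The 9 fibroblast markers differed by -0.03 on average, with 4 of 9 higher and 0 called, and the 5 endothelial markers by 0.05, with 3 of 5 higher and 0 called. The 6 macrophage markers differed by 0.14 on average, with 5 of 6 higher and 0 called, and their mean level ran from 8.84 to 9.78 in KO tumours and from 8.86 to 9.52 in WT tumours. The 6 adipocyte markers differed by 0.22, with 5 of 6 higher, 0 called and 1 at an unadjusted p under 0.05 in limma. Their mean ran from 6.11 to 6.50 in KO tumours and from 5.77 to 6.32 in WT tumours. Adipoq, which defines adipocytes, was at 4.79 in KO tumours and 4.71 in WT tumours, below the lower quartiles of the arrays, while Fabp4, also made by macrophages and endothelium, was at 9.84 in KO tumours and 9.27 in WT tumours. The 6 neutrophil markers were all higher, by 0.34 on average, where 57.2% of all probe sets were above 0. None was called, and 3 of 6 had an unadjusted p under 0.05, against 2.39% of all probe sets. Their mean level ran from 5.59 to 6.43 in KO tumours and from 5.48 to 6.05 in WT tumours. The highest were KO tumours 2, 1 and 3, at 6.43, 6.40 and 6.29. The neutrophil markers averaged between 4.44 (Ly6g) and 6.66 (Cxcr2), and no share was taken over probe sets of that range. WT tumour 2, the lowest in Glul, had the lowest macrophage mean of its group, 8.86, and KO tumour 3, the low one of its group in Glul, had 8.84. WT tumour 1, the other low one in Glul, had 9.25, close to the WT average of 9.27. KO tumour 2, the highest in Glul, had a macrophage mean of 9.23, below the KO average of 9.41. The endothelial means behaved alike, with WT tumour 2 at 7.58 and KO tumour 3 at 7.47, each the lowest of its group. There WT tumour 1 was at 8.09, close to the WT average of 8.08, and KO tumour 2 at 7.99, below the KO average of 8.13. In the fibroblast means KO tumour 3 was lowest, at 8.75, but WT tumour 5, at 9.01, was the lowest of the WT group. The other lists differed on average by 0.14 (carcinoma epithelium, 6 of 6 higher), 0.27 (B cells, 3 of 3, median 0.11), 0.12 (nerve and glia, 3 of 3), 0.06 (skeletal muscle, 5 of 6), 0.05 (prostate gland secretion, 6 of 9) and -0.04 (T cells, 3 of 5), with 0 called. Of the B cell markers 1 had an unadjusted p under 0.05 in limma. KO tumours 2 and 3 had the highest KO means in skeletal muscle (5.98 and 6.11, others 5.62 to 5.76) and B cells (5.45 and 5.46, others 5.04 to 5.32). The same held in prostate gland secretion (4.24 and 4.44, others 3.81 to 4.08). KO tumour 3 was the highest of its group in epithelium and nerve, but KO tumour 1 in T cells. No marker average was taken without KO tumours 2 and 3. The part of these cells in the Glul levels was not tested.

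The 5 genes whose levels across the 12 tumours were most like those of Glul, out of 19937 genes, were Snord38a, Rps19-ps3, Uqcrc1, Msto1 and 2210016F16Rik. Their likeness, as Pearson's r over 12 tumours, lay between 0.85 and 0.90. These are the top of a very long ranking and are given as a description. Over the 8 tumours with wider ranges, the likeness was 0.92 for Msto1, 0.81 for Uqcrc1 and 0.58 to 0.64 for the other 3.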

How the data were processed

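Each of 12 tumours (6 p62 KO, 6 WT) was measured on 1 array, amplified with the Ovation Pico WTA system per the labels' protocols. The authors' deposited values are probe set intensities on a log2 scale, made with RMA per the submitters' processing notes, which give no version. The table had 34760 rows. Its 6568 rows of lowest identifier hold no annotated gene, were taken as array controls and left out, so that 28192 probe sets were tested (21640 with 1 gene symbol, 1321 with several, 5231 with none). A boundary set from identifiers was checked by also testing all rows. Array number, not depth, limits precision.

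A two-sided limma fit (version 3.58.1, R 4.3.3) set KO against WT hosts without covariates, using lmFit and eBayes; p-values were adjusted by Benjamini-Hochberg over all tested probe sets and called under 0.05. The fit was tried on simulated data with independent noise per probe set and array. Such data lack deviations shared by many probe sets of an array, so they do not cover the tumours standing apart. Separate mice are stated, not separate batches. The genes, lists and rules were chosen with earlier results of these data known. Named genes of each list are those with the largest difference in each direction and those with an unadjusted p under 0.05. Alternatives covered array scaling, probe set choice, a filter on dim probe sets, eBayes settings, weights per array, a block for the mouse number, each array's interquartile range in the model, and tumours left out. Same-numbered tumours did not deviate together in every pair (correlations from -0.55 to 0.37), so the block was not the main design. Figures were drawn with matplotlib 3.10.9.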

Additional observations from a re-analysis of the deposited data

Results flagged for a closer look

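In 58 sets of 6 values (a gene or measure within a host genotype), 8 held 1 tumour well separated from its group, where about 1 in 20 unselected and independent sets would by chance. That rate is no chance value here, because many of the genes were named for the size of their difference and the sets share the same tumours. KO tumour 2 lay apart in Glul relative to the glutamate-converting enzymes (1.19, against -0.15 to 0.20 in the other KO tumours), relative to the carriers (1.04, against -0.04 to 0.17) and relative to the glutamine-using enzymes (0.96, against -0.14 to 0.10). These 3 measures share Glul and are not independent. The same tumour was low in Bcat1, at 7.48 against 8.06 to 8.39 in the other KO tumours.

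WT tumour 5 was low in Glud1, at 9.74 against 10.07 to 10.15 in the other WT tumours, and in Slc38a1, at 9.83 against 10.21 to 10.41. WT tumour 1 was high in Slc1a3, at 6.99 against 5.81 to 6.18, and KO tumour 3 was high in Ggt7, at 6.48 against 5.78 to 5.99.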

How the results depend on the processing

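The called counts of the 8 genes and of the 55 further genes were 0 under every alternative run. Glul stayed above 0 (0.15 to 0.34), and Slc1a5 (-0.19 to -0.08), Slc38a2 (-0.28 to -0.0083), Slc38a4, Slc7a6, Slc7a11, Gclc and Pfas kept their directions. Quantile normalization turned Glud1 to 0.015 and Aldh18a1 to 0.033. Weights per array turned Glud1 to 0.15, Got1 to 0.055, Got2 to 0.19, Ppat to 0.0056, Slc25a11 to 0.22, Aldh18a1 to 0.092, Slc1a3 to -0.031, Prodh to -0.0050 and Ggt7 to -0.034. With each array's interquartile range in the model, Glud1 was at 0.028, Got2 at 0.0087, Slc25a11 at 0.10 and Aldh18a1 at 0.036. Without KO tumours 2 and 3, the turned values were 0.21 for Glud1, 0.14 for Got1, 0.21 for Got2, 0.045 for Gpt2, 0.070 for Slc38a1, 0.070 for Ppat, 0.33 for Slc25a11, 0.012 for Bcat1, 0.16 for Aldh18a1, -0.048 for Prodh, -0.040 for Ggt7 and -0.027 for Gad1. Without these and WT tumours 2 and 5, they were 0.14 for Glud1, 0.037 for Got1, 0.13 for Got2, 0.16 for Slc25a11, 0.10 for Aldh18a1, -0.045 for Prodh, -0.033 for Ggt7 and -0.021 for Gad1. With each tumour left out in turn, Glud1 ran from -0.16 to 0.079, Got2 from -0.19 to 0.049, Slc25a11 from -0.12 to 0.17, Aldh18a1 from -0.11 to 0.10, Ggt7 from -0.027 to 0.11 and Aldh5a1 from -0.091 to 0.075. The cause of these turns was not tested.

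The 1 probe set called lower over the whole array became 0 with all rows tested, with the mouse number as a block (replicate block) and without KO tumours 2 and 3, and with each of 10 single tumours left out. It stayed at 1 without KO tumour 2 and without WT tumour 2 (range 0 to 1). The replicate block left Glul at 0.25 and changed no call among the genes described. Same-numbered tumours are not stated to be paired. The differences in Glul relative to converting enzymes, carriers and glutamine-using enzymes were 0.12, 0.22 and 0.11 without the 4 tumours, against 0.39, 0.45 and 0.33 over all 12. The measure against Gls2 was not run, since Gls2 was not analysed here.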
